A study of Mus musculus with 12 samples.

Results

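The 8 genes described here sense foreign compounds in the liver or serve the enzymes that clear them: the dioxin receptor Ahr, its partner Arnt, its feedback genes Ahrr and Tiparp, the receptors PXR (Nr1i2) and CAR (Nr1i3), their partner Rxra, and the P450 reductase Por. They were picked by gene symbol from the 16475 probe sets of the array that are not array controls, and each has 1 probe set. The platform annotation names 7 of them. It gives no probe set the symbol Por, but every one of the 15780 probe sets it does name carries the Entrez Gene number of its gene, and number 18984 is Por in the RefSeq gene table. The filter on low signals asked for a log2 intensity of at least 4 on at least 3 arrays. Of the 8 genes 7 passed it, against 6683 of all 16475 probe sets, and Ahrr did not. Arnt reached that level on 3 of the 12 arrays and Tiparp on 9, so both passed through the arrays on which they were high, and counts over the 7 are given as descriptions only.

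RNA of whole liver from 12 mice was measured, 1 array per mouse, in 4 groups of 3. The controls were c-MetloxP/loxP mice, whose Met gene (the HGF receptor) is flanked by loxP sites, and the knockouts (c-MetDhepa) carried the same alleles with Cre driven by liver promoters. Either Alfp-Cre, active in the embryo, or Alb-Cre, active from 2 weeks after birth, had been used, and the labels do not say which one each mouse carried. Both promoters act in the hepatocyte lineage, Alfp-Cre from the stage of its embryonic precursors, so liver cells outside that lineage keep the gene. Each genotype was taken unstimulated and 2 h after 2 µg of recombinant mouse HGF, given into the peritoneum. It is not stated whether the unstimulated mice received NaCl, and no age is given in the sources used here. The comparisons ask how HGF and the loss of Met bear on these genes. Controls are arrays 1 to 6 and knockouts arrays 7 to 12, so genotype and array order cannot be told apart, and p-values measure only the spread between these mice.

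A pair of knockout arrays went against their labels. Tnfaip3, a feedback gene of inflammatory signalling, had log2 intensities of 2.15 to 2.38 in controls without HGF and 9.67 to 10.82 in controls with HGF. In knockouts labelled without HGF it was 3.41, 10.22 and 2.45 in replicates 1 to 3, and in those labelled with HGF 3.74, 2.44 and 9.59. Replicate 2 of each knockout group thus lay at the level of the opposite label. Replicate 1 with HGF, at 3.74, also lay near the arrays without HGF in Tnfaip3. On that array the inflammatory genes Cxcl1 (10.94) and Socs3 (8.66) were high. The mean of all 12 listed inflammatory genes was 7.92 there, against 5.22 to 7.05 in controls without HGF and 10.67 to 11.16 in controls with. The array was kept, so the knockouts with HGF remained mixed. For the comparisons with knockouts the values without the 2 replicate 2 arrays are given beside those as labelled. Leaving them out rests on genes that separate the HGF groups, so a call that begins without them, for a gene that divides the arrays like Tnfaip3, is a description and no independent test. Probe sets called without them were 8.16% of those tested for HGF in controls, 4.16% for HGF in knockouts, 2.69% and 0.0299% for the knockout without and with HGF, 0.853% for its average and 0.359% for the interaction. Hepatocyte markers (6 tested of 8 listed) averaged 13.10 to 13.21 on every array, while none of the 4 cholangiocyte and none of the 4 lymphocyte markers passed the filter. Of 4 neutrophil markers, S100a8 and S100a9 passed. Their mean was 3.41 to 5.10 in controls without HGF, 8.52 to 10.41 in controls with HGF, 3.65 to 9.24 in knockouts without and 3.004 to 9.23 in knockouts with HGF. Of the 7 Kupffer cell and macrophage markers 6 were lower with HGF in controls, while Marco was 2.25 higher (SE 0.69, limma adjusted p = 0.128), and all 7 were lower in knockouts without HGF (6 of 7 without the 2 arrays). Their mean was 7.06 to 7.76 in controls without HGF, 7.24 to 7.67 in controls with, 6.79 to 7.18 in knockouts without and 6.88 to 7.70 in knockouts with HGF. Of the 5 endothelial markers 4 were lower with HGF in controls and Lyve1 was 2.61 higher (SE 0.72, limma adjusted p = 0.107). The endothelial mean ran from 6.32 to 6.77 over all arrays. Of all tested probe sets, 64.4% were lower with HGF in controls and 54.9% were lower in knockouts without HGF. Marco and Lyve1 passed for HGF in controls without the 2 arrays (adjusted p = 0.0106 and 0.0308). The part of these markers in the results below was not tested. In whole liver, fewer cells of a type and less RNA per cell cannot be told apart.

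Ahr is a ligand-activated transcription factor that waits in the cytoplasm with chaperones, moves to the nucleus when it binds dioxin-like or tryptophan-derived ligands, pairs with Arnt and binds the xenobiotic response element, whose core reads GCGTG. Among its targets are Cyp1a1 and Cyp1a2 and the genes of its own inhibitors, Ahrr and Tiparp. CAR and PXR are nuclear receptors of hepatocytes that pair with Rxra and switch on Cyp2b, Cyp2c and Cyp3a enzymes, conjugating enzymes and transporters. Por passes electrons from NADPH to all microsomal P450 enzymes, so it stands downstream of both branches.

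The promoters of the feedback genes and of Por are shown because they hold the Ahr binding core. RefSeq promoter entries (GRCm38.p6) were found for 7 of the 8 genes, and Ahr had none. Each line gives the 250 bases before the start of the gene on its own strand, 5′ to 3′, with GCGTG in capitals on the strand shown and CACGC for the same core on the other strand. The entries lie at chr3:65528197-65528446 on the plus strand for Tiparp, chr13:74292332-74292581 on the minus strand for Ahrr and chr5:135688895-135689144 on the plus strand for Por.
Tiparp: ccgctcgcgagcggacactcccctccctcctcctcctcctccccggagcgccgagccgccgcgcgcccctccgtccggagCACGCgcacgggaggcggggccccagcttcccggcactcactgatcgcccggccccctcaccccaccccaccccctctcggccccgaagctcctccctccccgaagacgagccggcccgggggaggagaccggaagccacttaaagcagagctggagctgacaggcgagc
Ahrr: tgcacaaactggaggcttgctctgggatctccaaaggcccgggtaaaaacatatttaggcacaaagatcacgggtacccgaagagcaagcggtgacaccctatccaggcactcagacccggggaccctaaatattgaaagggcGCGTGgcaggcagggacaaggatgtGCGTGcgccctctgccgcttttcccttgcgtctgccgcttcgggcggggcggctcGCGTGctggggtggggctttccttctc
Por: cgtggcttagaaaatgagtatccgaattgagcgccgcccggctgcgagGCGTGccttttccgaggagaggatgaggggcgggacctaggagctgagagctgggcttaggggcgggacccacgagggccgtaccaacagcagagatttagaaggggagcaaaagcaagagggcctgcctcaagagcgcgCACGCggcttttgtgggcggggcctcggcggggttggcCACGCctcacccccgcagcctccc
Ahrr and Por each held 3 matches, and Tiparp held 1. Arnt, not shown, held 1, while Nr1i2, Nr1i3 and both entries of Rxra held 0. Over all 32851 promoters of the table, 28.2% held at least 1 match in the same window and 2.77% held 3 or more. The D box TTANGTAA, bound by the clock factors Dbp, Tef and Hlf, was in none of the 7 genes' windows and in 2.06% of all. Nr1i3 held 1 E box (CACGTG, in 6.02% of all promoters) at position -244 and 1 AP-1 site (TGANTCA, in 6.75%) at position -109, counted from the start of the gene; the other members held neither. All letters were searched on both strands, and a match is a description of the sequence.

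Ahr rose with HGF in control livers. Its log2 intensities were 6.73, 6.72 and 6.54 in controls without HGF and 7.30, 7.35 and 7.21 in controls with HGF. All arrays with HGF lay above all arrays without it. The rise was 0.62 on the log2 scale (SE 0.10), or 1.54-fold, with a limma adjusted p of 0.0418. Ahr was 1 of 27 probe sets called in this comparison, 0.404% of those tested, and the sole one among the 7 sensor genes tested. The call ended when any 1 of the 6 control arrays was left out, with differences of 0.56 to 0.66 and limma adjusted p-values of 0.0897 to 0.173. It also ended with the replicate number as a block (adjusted p = 0.290).

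In knockout livers Ahr was 6.74, 6.89 and 6.84 without HGF and 7.15, 6.90 and 7.01 with HGF. These groups did not overlap either, but the nearest arrays, both replicate 2, were 6.89 and 6.90. The difference was 0.20 (SE 0.10, limma adjusted p = 0.9995) and without the 2 replicate 2 arrays it was 0.29 (SE 0.12, adjusted p = 0.211). By group mean, Ahr ran from 7.29 ± 0.07 in controls with HGF through 7.02 ± 0.12 in knockouts with HGF and 6.82 ± 0.07 in knockouts without to 6.66 ± 0.11 in controls without (SD, n = 3), and no neighbours in this order overlapped. The HGF difference in knockouts minus that in controls, the interaction, was -0.43 (SE 0.15) and did not pass (limma adjusted p = 0.377; -0.34 and adjusted p = 0.422 without the 2 arrays). No probe set passed for the interaction (0%), where 724 had an unadjusted p under 0.05, nor for HGF in knockouts (0%), where 127 did.

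Arnt, the partner that Ahr needs to bind DNA, lay near the limit of the filter. Its log2 intensities were 3.72, 3.25 and 3.32 in controls without HGF and 4.32, 3.79 and 4.08 with it. All 3 arrays with HGF were above those without, by 0.63 on average (SE 0.26, limma adjusted p = 0.216). Knockouts stood at 3.39, 3.86 and 3.09 without HGF and 3.86, 3.20 and 4.03 with it, and these groups overlapped. The difference in knockouts was 0.25 (SE 0.26) as labelled and 0.71 (SE 0.22, limma adjusted p = 0.111) without the 2 replicate 2 arrays. Group means fell in the order 4.06 ± 0.26 (controls with HGF), 3.70 ± 0.44 (knockouts with HGF), 3.45 ± 0.39 (knockouts without) and 3.43 ± 0.25 (controls without), where each neighbouring pair overlapped.

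Of the 9 listed partners of Ahr, 5 were tested and 0 passed in any of the 6 comparisons, with or without the 2 arrays. In controls 3 were higher with HGF and 2 lower, with a median of 0.07 against -0.09 over all tested probe sets; 1 of the 5 had an unadjusted p under 0.05. The members with the highest mean level were the chaperone Hsp90ab1 and the co-chaperone Ptges3. With HGF in controls Hsp90ab1 differed by 0.08 (SE 0.19) and Ptges3 by -0.09 (SE 0.08), and neither passed.

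Tiparp, an ADP-ribosyltransferase that Ahr induces and that represses Ahr in turn, had the largest difference of the 8 genes. Controls without HGF had log2 intensities of 3.71, 3.53 and 3.79, and controls with HGF had 7.32, 8.06 and 7.39. The groups were far apart, by 3.92 (SE 0.81), or 15.1-fold. The size of the fold is uncertain because all arrays of the lower group lay below the filter level of 4. The test missed the threshold with the spread pooled over all 4 groups (limma adjusted p = 0.0692). It passed with the 2 control groups alone (limma adjusted p = 0.00016), where 12% of all probe sets passed. Without the 2 knockout replicate 2 arrays it also passed (limma adjusted p = 0.00167), beside 8.16% of all. Tiparp divided the knockout arrays as Tnfaip3 did, so the call without these arrays is a description and no independent test. With arrays weighted by their scatter Ahr, Arnt and Tiparp passed (3 of 7), beside 19.1% of all probe sets. Ahr, Arnt and Tiparp were the 3 of 8 genes whose control arrays did not overlap, and 37.7% of tested probe sets did not.

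In the knockouts Tiparp split by replicate. It was 4.22, 7.19 and 4.50 without HGF and 5.73, 4.60 and 7.47 with HGF. Replicate 2 without HGF was close to the controls with HGF, and replicate 2 with HGF to the other knockouts without it. The difference was 0.63 (SE 0.81, limma adjusted p = 0.9995) as labelled. Without the 2 arrays it was 2.24 (SE 0.48, limma adjusted p = 0.0404). Tiparp divided the arrays as Tnfaip3 did, by which the 2 arrays were left out, so this value describes the remaining arrays and is not counted as a rise. The interaction was -3.29 (SE 1.14, adjusted p = 0.383) as labelled and -1.68 (SE 0.62, adjusted p = 0.302) without them, so a smaller response in knockouts did not pass in either form. Group means were 7.59 ± 0.41 in controls with HGF, 5.93 ± 1.44 and 5.30 ± 1.64 in knockouts with and without HGF, and 3.67 ± 0.13 in controls without. The 2 knockout groups overlapped each other, knockouts with HGF overlapped controls with HGF, and controls without HGF lay below all other arrays.

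**Figure D1:**
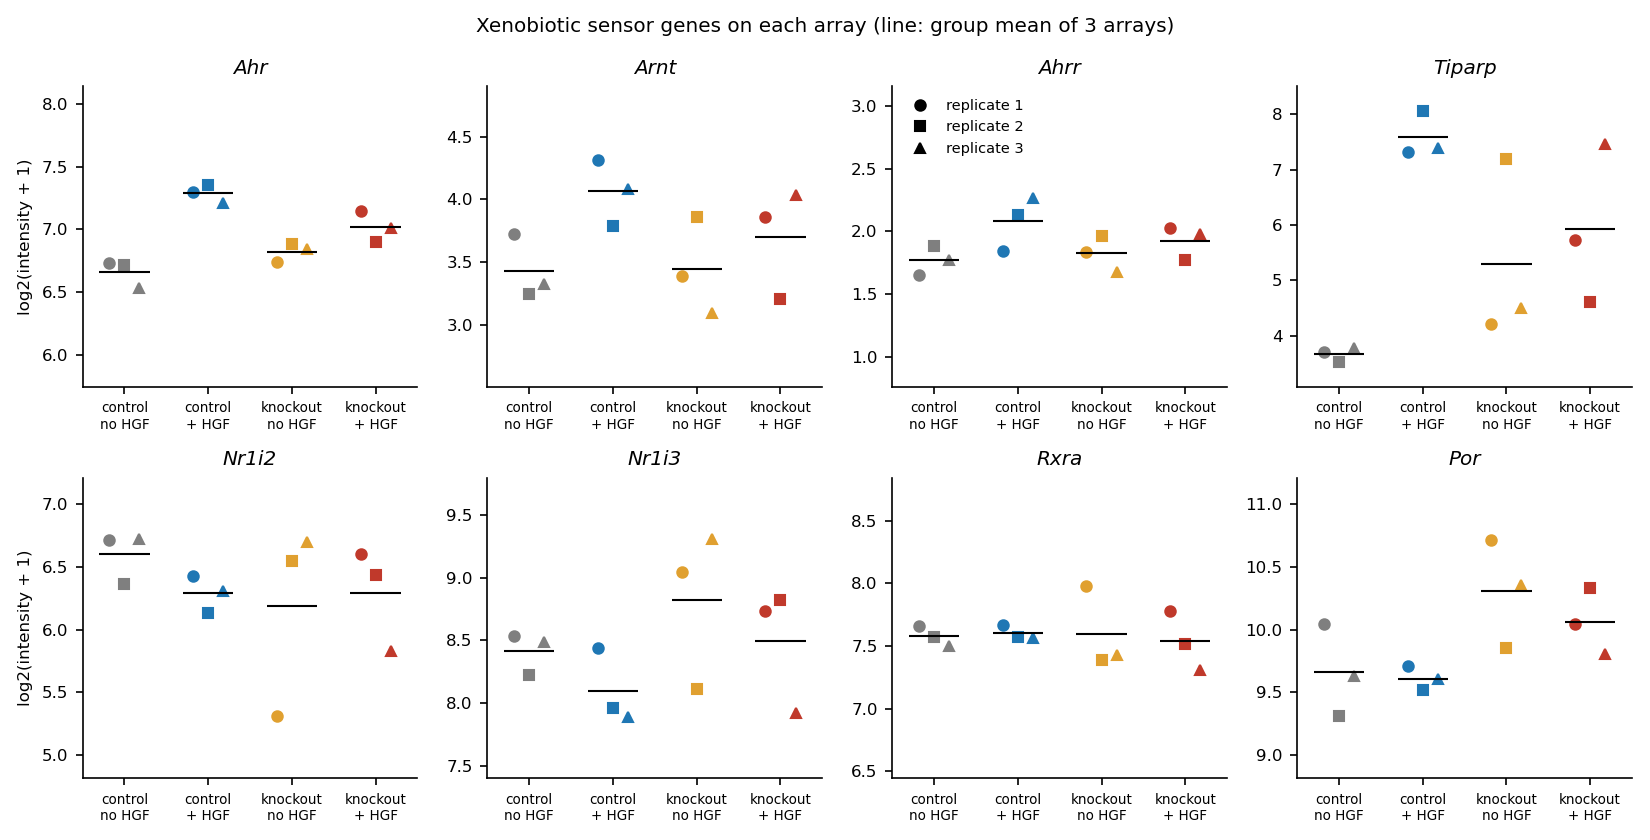
Log2(intensity + 1) of the 8 genes on each of the 12 arrays (vertical axes, each with its own range) by group, with the mean of 3 arrays as a line and the replicate number as the symbol. Ahr, Arnt and Tiparp separate the control groups, and knockout replicate 2 of Tiparp stands at 7.19 without HGF and 4.60 with it.

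Ahrr, the repressor that competes with Ahr for Arnt, stayed below the filter on all arrays and was not tested. Its log2 intensities ran from 1.65 to 2.27. They were 1.65, 1.88 and 1.77 in controls without HGF, 1.84, 2.13 and 2.27 in controls with, 1.84, 1.96 and 1.68 in knockouts without and 2.03, 1.77 and 1.98 in knockouts with HGF. At this signal GCRMA values give no reliable order of the groups.

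Of the 8 listed Ahr targets a probe set was found for 6 and 3 were tested, of which 0 passed in any comparison, with or without the 2 arrays. With HGF 1 of the 3 was higher and 2 were lower in controls. In knockouts all 3 were lower, where 51.3% of all tested probe sets were, with a median of -0.16 (-0.19 without the 2 arrays). Cyp1a1, the target most used as a readout of Ahr activity, lay between 2.26 and 2.91 on all arrays, and Cyp1b1 and Aldh3a1 were also below the filter. Nfe2l2, the antioxidant regulator Nrf2, was 0.74 higher with HGF in controls (SE 0.22, limma adjusted p = 0.127). Cyp1a2, the constitutive P450 of this family in hepatocytes, differed by -0.11 (SE 0.10) with HGF in controls.

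Cyp1a2 separated the genotypes instead. It was 12.13, 12.02 and 11.98 in controls without HGF, 11.79, 11.97 and 12.04 in controls with, 12.37, 12.25 and 12.44 in knockouts without and 12.27, 12.39 and 12.30 in knockouts with HGF. All 6 knockouts were above all 6 controls. Of all tested probe sets, 50 (0.748%) kept the genotypes apart in either direction. The averaged difference was 0.35 (SE 0.07, limma adjusted p = 0.157), and 0.36 (SE 0.08, adjusted p = 0.0857) without the 2 arrays, so it did not pass. Nqo1, a quinone reductase chosen here after its values were seen, was 0.94 higher in knockouts (SE 0.27, limma adjusted p = 0.278), and 1.05 higher without the 2 arrays (SE 0.31, adjusted p = 0.169). The genotypes overlapped in Nqo1, with 5.53 on control replicate 1 without HGF and 5.02 on knockout replicate 3 with HGF. Cyp1a2 and Nqo1 are listed as Ahr targets, and none of the sensor genes separated the 6 knockouts from the 6 controls.

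PXR (Nr1i2), the receptor for many drugs and bile acids, overlapped between all groups. It was 6.72, 6.36 and 6.72 in controls without HGF and 6.43, 6.13 and 6.31 with it. In knockouts it was 5.31, 6.55 and 6.70 without HGF and 6.61, 6.44 and 5.83 with it. The lowest array was knockout replicate 1 without HGF, and knockouts without HGF had the widest spread. The HGF difference was -0.31 in controls (SE 0.33, limma adjusted p = 0.634) and 0.11 in knockouts (SE 0.33), and the averaged knockout difference was -0.21 (SE 0.24, limma adjusted p = 0.795). With the 2 arrays left out the latter values were 0.21 (SE 0.41) and -0.34 (SE 0.27, limma adjusted p = 0.575). By mean the groups stood at 6.60 ± 0.21 (controls without HGF), 6.29 ± 0.15 (controls with), 6.29 ± 0.41 (knockouts with) and 6.19 ± 0.76 (knockouts without), and all neighbours overlapped.

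Rxra, the partner of CAR, PXR and many other nuclear receptors, had the closest group means of the 8 genes. Its arrays read 7.66, 7.57 and 7.50 in controls without HGF and 7.67, 7.58 and 7.56 with it, then 7.98, 7.39 and 7.43 in knockouts without HGF and 7.78, 7.52 and 7.31 with it. All groups overlapped and their means lay between 7.54 and 7.60. The HGF difference was 0.03 in controls (SE 0.17, limma adjusted p = 0.948) and -0.06 in knockouts (SE 0.17), and the averaged knockout difference was -0.02 (SE 0.12). Without the 2 arrays the latter values were -0.16 (SE 0.20) and 0.03 (SE 0.13), and none of them passed.

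CAR (Nr1i3), which in untreated hepatocytes is held in the cytoplasm and enters the nucleus upon phenobarbital-like signals, varied more between knockouts than between controls. Controls had 8.53, 8.22 and 8.48 without HGF and 8.44, 7.96 and 7.89 with it. Knockouts had 9.05, 8.11 and 9.31 without HGF and 8.74, 8.82 and 7.92 with it. The HGF difference was -0.32 in controls (SE 0.32, limma adjusted p = 0.617) and -0.33 in knockouts (SE 0.32), and -0.85 in knockouts without the 2 replicate 2 arrays (SE 0.28, adjusted p = 0.131). Group means were 8.82 ± 0.63 in knockouts without HGF, 8.49 ± 0.50 in knockouts with, 8.41 ± 0.17 in controls without and 8.10 ± 0.30 in controls with HGF, and all neighbours overlapped. Without the 2 arrays, 6 of the 8 genes no longer overlapped between the knockout groups, among them Nr1i3 and Por, and neither did 50.4% of all tested probe sets. As labelled it was 1 gene, Ahr, beside 3.8% of all.

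The enzymes and transporters that CAR and PXR control were mostly lower with HGF in controls. Of 36 listed genes 30 had a probe set and 24 were tested. In controls 23 of the 24 were lower with HGF, where 64.4% of all tested probe sets were, and the median was -0.28 against -0.09. Of the 24, 9 had an unadjusted p under 0.05, against 19.6% of all. The 1 that fell by the test was Cyp2c55, a P450 of the Cyp2c family whose close copies can share probe signal, with log2 intensities of 8.27, 7.82 and 7.996 without HGF and 5.06, 5.99 and 5.22 with it (difference -2.61, SE 0.45, limma adjusted p = 0.0452). Without the 2 knockout arrays 3 of the 24 passed, all lower: Cyp2c55 (limma adjusted p = 0.00917), the glutathione transferase Gstm3 (-1.42, SE 0.27, adjusted p = 0.0169) and the P450 Cyp3a25 (-0.64, SE 0.14, adjusted p = 0.0256). Without these arrays 8.16% of all tested probe sets passed. In knockouts Cyp3a25 was 12.93, 12.59 and 13.15 without HGF and 12.84, 13.00 and 12.40 with it. Its replicate 2 arrays went against the rest of their groups, so its call is a description and no independent test. Of the 24 targets, the 2 with the highest mean level differed little. They were Cyp3a11, the main PXR-driven P450, at -0.12 (SE 0.08) and Aldh1a1, a retinal dehydrogenase, at -0.12 (SE 0.09).

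With HGF, 22 of the same 24 genes were higher in knockouts than in controls, by a median of 0.33 against 0.04 over all tested probe sets, and 0 passed; without the 2 arrays it was 24 of 24, with a median of 0.24 and 0 passed. This comparison and that of HGF in controls share the 3 controls with HGF. In knockouts 11 of the 24 were higher with HGF and 13 lower, with a median of -0.02 (-0.03 without the 2 arrays, again 11 and 13). Without HGF 13 were higher in knockouts and 0 passed; without the 2 arrays 14 were, and the fatty acid carrier Cd36 passed (0.85, SE 0.18, limma adjusted p = 0.0451). Mean levels over the list did not overlap between controls with HGF, at 9.77 to 9.87, and any other group, the lowest of which reached 10.10. The neutrophil markers and the 12 inflammatory genes also set controls with HGF apart from controls without (inflammatory mean 10.67 to 11.16 against 5.22 to 7.05). Within knockouts without HGF, the inflammatory mean ran from 5.88 to 10.997 and the neutrophil mean from 3.65 to 9.24. The target mean there ran from 10.22 to 10.44. Replicate 2, which went against its label in Tnfaip3, had the highest inflammatory and neutrophil means of this group and the lowest target mean. The part of the inflammatory genes and neutrophil markers in the target values was not tested.

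Of the 14 listed co-regulators of CAR and PXR, 10 were tested and 0 passed in any comparison as labelled; in controls 7 were higher with HGF, with a median of 0.09. Hnf4a, which maintains hepatocyte expression of both receptors, differed by 0.31 (SE 0.20), and the corepressor Ncor1 by 0.11 (SE 0.11). Nr0b2 (SHP), a repressor of nuclear receptors chosen here after its values were seen, was 8.92, 8.69 and 9.02 in controls without HGF and 3.99, 4.27 and 5.76 with it. The difference of -4.20 (SE 1.12, limma adjusted p = 0.103) did not pass as labelled and passed without the 2 knockout arrays (SE 0.85, adjusted p = 0.0196). In knockouts Nr0b2 was 7.14, 3.71 and 7.57 without HGF and 8.51, 7.80 and 4.67 with it, so the low arrays were again replicate 2 without and replicate 3 with HGF. Its call in controls without the 2 arrays is therefore a description and no independent test. Without the 2 arrays the difference with HGF in knockouts was -0.76 for Nr0b2 (SE 1.04, limma adjusted p = 0.706). The glucocorticoid receptor Nr3c1 passed there (-0.51, SE 0.12, limma adjusted p = 0.0484), beside 4.16% of all tested probe sets. In knockouts Nr3c1 was 7.21, 6.73 and 7.17 without HGF and 6.75, 7.05 and 6.60 with it. Its replicate 2 arrays went against the rest of their groups, so this call too is a description and no independent test.

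**Figure D2:**
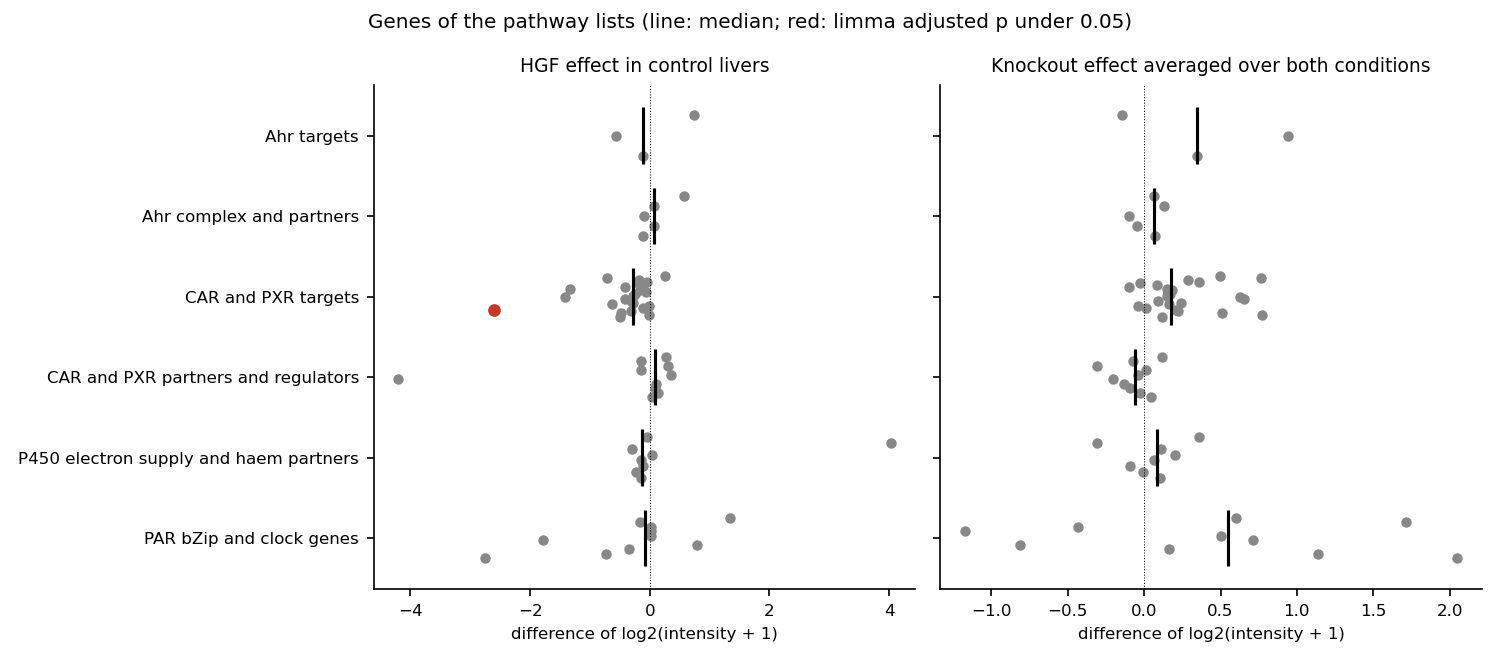
Differences of log2(intensity + 1) (horizontal axes) of each tested gene of 6 lists (rows) for HGF in controls and for the knockout averaged over both conditions; lines are medians and the red point, Cyp2c55, passed the limma test. The CAR and PXR targets lie mostly left of 0 for HGF in controls, with a median of -0.28.

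Por, the electron donor of the P450 enzymes, had the largest averaged knockout difference of the 7 tested genes, which did not pass the test. It was 10.05, 9.31 and 9.63 in controls without HGF and 9.71, 9.52 and 9.60 with it. Knockouts had 10.72, 9.85 and 10.35 without HGF and 10.05, 10.33 and 9.80 with it. With HGF all knockouts were above all controls, and without HGF the highest control, replicate 1, lay above knockout replicate 2. The averaged difference was 0.55 (SE 0.17), or 1.46-fold, with an unadjusted limma p of 0.00889 and an adjusted p of 0.342. It was 0.59 (SE 0.15, adjusted p = 0.120) without the 2 replicate 2 arrays.

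HGF moved Por little in controls, by -0.05 (SE 0.24, limma adjusted p = 0.929). In knockouts the difference was -0.25 (SE 0.24) as labelled and -0.61 (SE 0.23, limma adjusted p = 0.168) without the 2 arrays. The order of group means was 10.31 ± 0.43 (knockouts without HGF), 10.06 ± 0.26 (knockouts with), 9.66 ± 0.37 (controls without) and 9.61 ± 0.10 (controls with), and of the neighbours only knockouts with and controls without HGF differed by more than either group's SD. All 8 listed electron carriers and haem enzymes were tested and 0 passed in any comparison as labelled, with a median averaged knockout difference of 0.08. Those with the highest mean level, Pgrmc1 and Cyb5a, differed with HGF in controls by -0.14 (SE 0.09) and -0.15 (SE 0.09). Hmox1, which degrades haem and was chosen here after its values were seen, was 4.02 higher with HGF in controls (SE 1.10, limma adjusted p = 0.107). Without the 2 arrays Hmox1 was the 1 of the 8 that passed, for HGF in controls (SE 0.50, limma adjusted p = 0.00418) and in knockouts (3.02, SE 0.62, adjusted p = 0.0360). Hmox1 was 10.01 on knockout replicate 2 without HGF and 6.35 on replicate 2 with it, against the labels as for Tnfaip3. Its calls without these arrays are thus a description and no independent test.

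**Figure D3:**
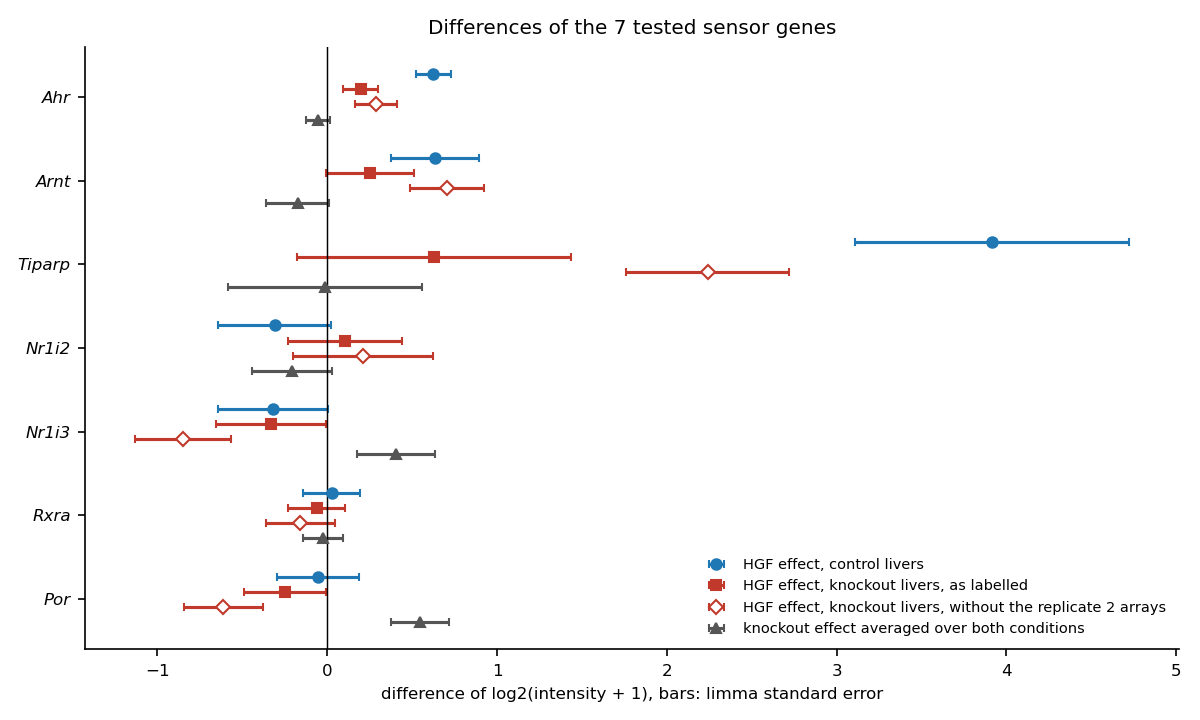
Differences of log2(intensity + 1) (horizontal axis) of the 7 tested genes with limma standard errors as bars, for HGF in controls, HGF in knockouts as labelled and without the 2 replicate 2 arrays, and the knockout averaged over both conditions. Tiparp has the largest HGF difference, 3.92 in controls, and Por the largest averaged knockout difference, 0.55.

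The knockout comparisons gave 0 calls among the 7 genes, with or without the 2 replicate 2 arrays. Over all tested probe sets 4 passed without HGF (0.0599%), 1 with HGF (0.015%) and 1 for the average (0.015%). Without HGF, Ahr and Tiparp did not overlap between genotypes, nor did 18.7% of tested probe sets; Ahr was 0.16 higher in knockouts (SE 0.10, limma adjusted p = 0.640) and Tiparp 1.63 higher (SE 0.81, adjusted p = 0.518). With HGF, Ahr and Por did not overlap, nor did 14.9%; Ahr differed by -0.27 (SE 0.10, limma adjusted p = 0.496) and Por by 0.45 (SE 0.24, adjusted p = 0.566). With the 2 arrays left out these differences were 0.13 for Ahr (SE 0.11) and 0.68 for Tiparp (SE 0.44) without HGF, and -0.21 for Ahr (SE 0.11) and 0.31 for Por (SE 0.21) with HGF. With weighted arrays Por (0.68, limma adjusted p = 0.0442) and Nr1i3 (0.64, adjusted p = 0.0455) passed for the averaged difference, where 3.62% of probe sets did. Without weights that of Nr1i3 was 0.40 (SE 0.23, limma adjusted p = 0.603), and 0.50 (SE 0.18, adjusted p = 0.237) without the 2 arrays.

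Nr1i3 and Por followed Dbp from array to array in the knockouts. Dbp, Tef and Hlf are clock-controlled factors known to act on xenobiotic genes of the liver, Nr1i3 and Por among them. Dbp was 10.72, 2.92 and 10.72 in knockouts without HGF and 5.09, 11.05 and 2.81 with it, against 5.91 to 7.50 in controls without HGF and 2.61 to 5.21 in controls with. The 3 arrays highest in Dbp were also the 3 highest in Nr1i3 (9.05, 9.31 and 8.82) and in Por (10.72, 10.35 and 10.33). Tef was 7.47, 7.62 and 7.38 on these arrays and at most 5.58 on the other 9, and Hlf was 5.35, 5.33 and 5.13 against at most 4.55. Of the 14 clock genes 10 were tested and 0 passed in any comparison as labelled. Without the 2 replicate 2 arrays 2 were called higher and 5 lower with HGF in knockouts, and 4 higher and 2 lower in knockouts without HGF. Of all tested probe sets 4.16% and 2.69% were called there. Dbp was among the clock genes called, with -6.77 (SE 0.93, limma adjusted p = 0.00973) and 4.17 (SE 0.85, adjusted p = 0.0415). In the same form 1 clock gene was called higher and 1 lower with HGF in controls, likewise for the average, and 2 higher and 1 lower for the interaction. The shares over all probe sets were 8.16%, 0.853% and 0.359%. In Dbp, Tef and Hlf the 2 arrays left out went against the rest of their groups. Calls in this form are therefore a description and no independent test. The labels give no time of day, and the part of Dbp in the Nr1i3 and Por values was not tested.

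Tiparp ran beside the inflammatory gene Tnfaip3 in the same way. Arrays with Tnfaip3 at 9.59 or above had Tiparp between 7.19 and 8.06, and arrays with Tnfaip3 at 3.74 or below had Tiparp between 3.53 and 5.73. Ahr did not divide like this: knockout replicate 1 with HGF had Ahr at 7.15 with Tnfaip3 at 3.74, and knockout replicate 2 without HGF had Ahr at 6.89 with Tnfaip3 at 10.22. Socs3, a feedback inhibitor of cytokine signalling, was 8.66 and the chemokine Cxcl1 10.94 on the first of these arrays. Tiparp was 5.73 there, between its 3.53 to 3.79 in controls without HGF and its 7.32 to 8.06 in controls with. The mean of the 12 inflammatory genes was 7.92 on that array. It also lay between controls without HGF (5.22 to 7.05) and controls with (10.67 to 11.16). All 12 inflammatory genes were higher with HGF in controls, by a median of 4.35, and 0 passed (smallest limma adjusted p = 0.0801; 10 had an unadjusted p under 0.05). When the 2 arrays that differ in these very genes were left out, 10 were called higher with HGF in controls (smallest limma adjusted p = 1.6e-05) and 2, Socs3 and Cxcl1, in knockouts; both neutrophil markers were called in each. Their part and that of the neutrophil markers in the Ahr and Tiparp values was not tested.

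**Figure D4:**
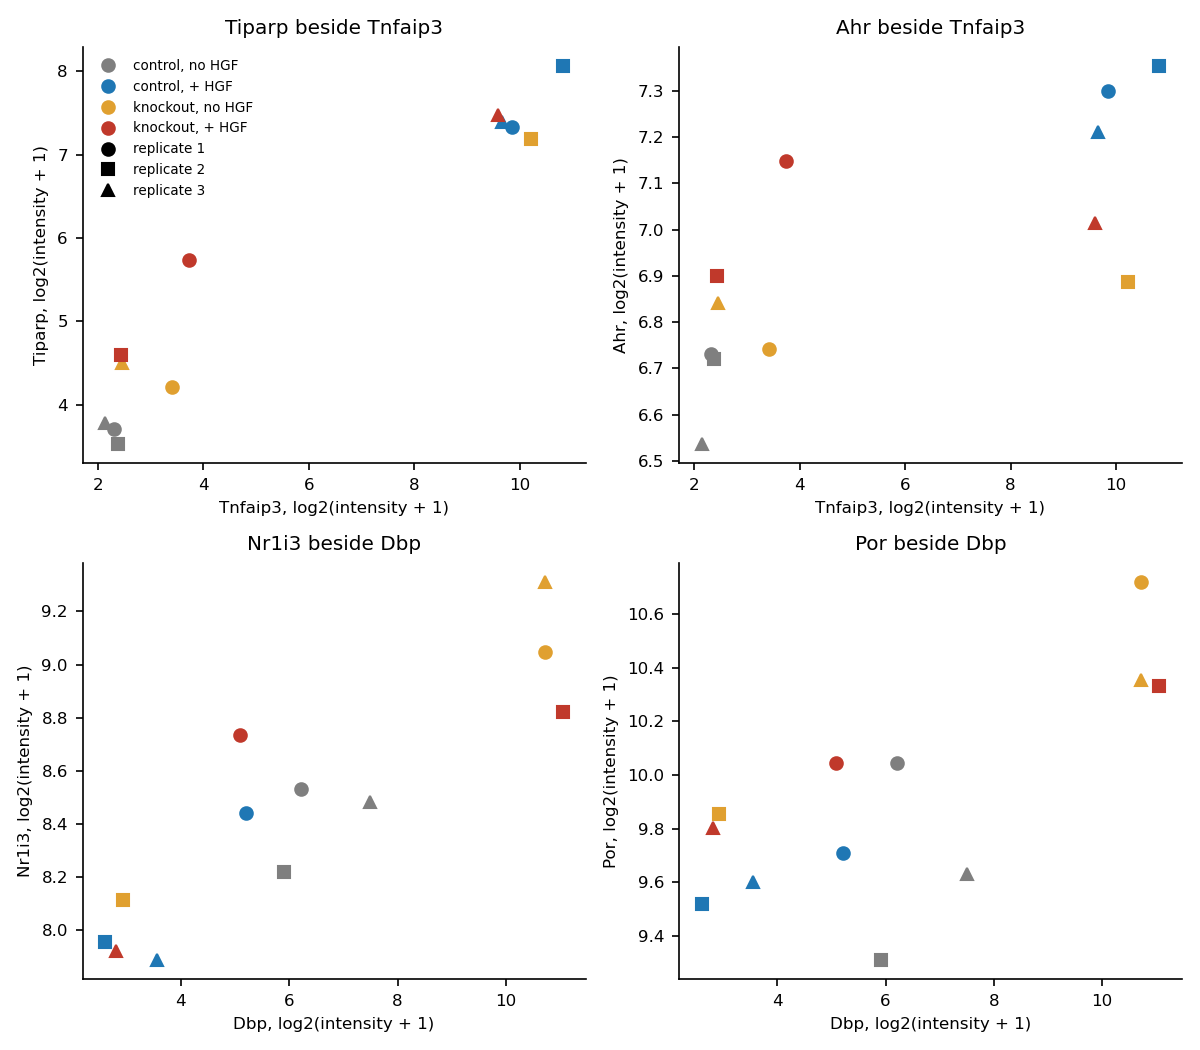
Log2(intensity + 1) of Tiparp and Ahr against Tnfaip3, and of Nr1i3 and Por against Dbp (both axes), 1 point per array, coloured by group with the replicate number as the symbol. Arrays fall apart at low and high Tnfaip3, and the 3 points with Dbp at 10.72 or above are the highest for Nr1i3 and Por.

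The probe sets most alike each gene were found by Pearson's r over the 12 arrays, among 6651 tested probe sets with a gene symbol. The arrays share group differences and the 2 arrays that go against their labels, so r is a description. Tiparp ran closest to Irf1 (0.980), Ip6k2 (0.975) and Ccnl1 (0.974), and Ahr to Ncf4 (0.927), Tnfrsf1a (0.901) and Junb (0.882). Arnt was most like Tada1 (0.955), Stat3 (0.951) and Slc39a14 (0.934). Nr1i3 was closest to Osbpl9 (0.952) and Coa5 (0.946), and Por to Serpina6 (0.920), Hpd (0.900) and Idh2 (0.892). For Nr1i2 the closest were Magoh (0.893), Fundc1 (0.867) and Mpst (0.854), and for Rxra Tpp1 (0.828), Igfbp4 (0.822) and Dgcr2 (0.822).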

How the data were processed

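Total liver RNA was labelled with biotin and hybridised to Affymetrix arrays, per the labels' protocols. The deposited values are linear probe set intensities, and the submitters' processing notes name GCRMA as the method of the authors, with no version. GCRMA compresses signals near background and evens out changes shared by most genes.

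The intensities were put on the scale log2(intensity + 1). Of 16539 probe sets, 64 array controls were left out, and 6683 passed the filter (log2 of at least 4 on at least 3 arrays). Names came from the platform annotation (15780 probe sets) or, for 477 more, from the Entrez Gene number and the RefSeq gene table. limma 3.58.1 in R 4.3.3 fitted 4 group means with 8 residual degrees of freedom; the interaction is the HGF effect in knockouts minus that in controls. Tests were two-sided, with Benjamini-Hochberg adjustment over all 6683 probe sets and calls at an adjusted p under 0.05. The fit was tested on simulated data. The median standard error between 2 groups was 0.18; 3 arrays per group limit the precision.

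The members, the 7 gene lists and the alternatives, including the one without the knockout replicate 2 arrays, were chosen with earlier results of these data known. All 8 genes were named, with up to 4 called or 2 most abundant members of a list and the 3 probe sets most alike each gene (1 of these is not reported here); others are marked as chosen after their values were seen. Alternatives were another pseudocount, no filter, quantile normalization, the compared groups alone, a replicate block, array weights (gene by gene, since the REML form stopped before converging) and each array left out. Arrays with the same number did not deviate together in every pair, so the numbers were not taken as pairs.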

Additional observations from a re-analysis of the deposited data

How the results depend on the processing

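For HGF in controls the number of sensor genes called, 1 with all arrays, was 2 with only the compared groups, 0 with the replicate block, 3 with array weights, 2 without the knockout replicate 2 arrays, and 0 to 2 when 1 array was left out. Ahr alone was lost without any 1 control array, and Tiparp was added without knockout replicate 2 of either group or replicate 3 with HGF. For HGF in knockouts the count went from 0 to 1 without the replicate 2 arrays, and for the averaged knockout effect from 0 to 2 with array weights. The cause was not tested. Same-numbered arrays correlated in their deviations by 0.05 to 0.18 in controls and -0.83 to 0.12 in knockouts. Within a genotype, arrays with the same replicate number also have consecutive array numbers, so the block follows array order.

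Some differences turned sign. Arnt without HGF between genotypes was -0.042 with array weights and -0.19 without the knockout replicate 2 arrays, and its interaction was 0.073 without them. Nr1i2 with HGF between genotypes was 0.0047 with a pseudocount of 16, 0.0153 after quantile normalization and 0.24 with array weights. Rxra with HGF between genotypes was 0.12 with array weights, and its averaged difference was 0.17 with array weights and 0.035 without the replicate 2 arrays. The interaction of Nr1i3 was 0.10 with array weights.

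Leaving out 1 array gave these ranges. For HGF in controls they were -0.014 to 0.067 for Rxra and -0.23 to 0.14 for Por. For HGF in knockouts they were -0.14 to 1.58 for Tiparp, -0.33 to 0.36 for Nr1i2 and -0.18 to 0.13 for Rxra. Between genotypes without HGF they were -0.19 to 0.195 for Arnt, -0.67 to 0.023 for Nr1i2 and -0.17 to 0.13 for Rxra, and with HGF -0.16 to 0.23 for Nr1i2 and -0.19 to 0.046 for Rxra. The averaged differences ran from -0.49 to 0.32 for Tiparp, -0.34 to 0.012 for Nr1i2 and -0.12 to 0.034 for Rxra. The interactions ran from -0.023 to 0.67 for Nr1i2, -0.37 to 0.27 for Nr1i3, -0.21 to 0.10 for Rxra and -0.42 to 0.0082 for Por. Of 784 alternatives for 42 single differences, 720 kept direction and side of the threshold, 7 lost and 10 gained a call, and 47 turned sign. Signal near background limits Ahrr and Arnt.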
